A study of Homo sapiens with 6 samples.

Results

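Keratins are the intermediate filament proteins of epithelial cells. Each filament is built from type I (acidic) chains and type II (neutral to basic) chains in equal amounts, and different epithelia use different partners: KRT8 with KRT18 in simple epithelium, KRT5 with KRT14 in the basal layer of stratified epithelium, KRT1 with KRT10 above it, KRT6 with KRT16 or KRT17 in wounded or activated epithelium, and KRT4 with KRT13 in moist mucosa. The genes lie in a type II cluster on chromosome 12 and a type I cluster on chromosome 17, with KRT18, a type I gene, at the end of the type II cluster.

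The keratin family was followed in COV434 cells, an ovarian cell line that the study treats as SCCOHT, the hypercalcemic form of ovarian small cell carcinoma, a cancer that has lost BRG1. SMARCA4 encodes BRG1, the motor subunit with which SWI/SNF complexes remodel chromatin. Parental COV434 cells, not a selected clone, were transfected with a control plasmid (pCDNA3-neo; Control, n = 3) or a BRG1 plasmid (PBJ5-BRG1; BRG1, n = 3), in both groups together with a plasmid for puromycin resistance (pBABE-puro), and 24 hours later were placed under puromycin (2 to 3 µg/ml), from which RNA-seq samples were taken after 3 days. Members were all rows of the gene table named KRT followed by a number and at most 1 letter, which leaves out keratin-associated proteins. This gave 55 of 19899 genes, 29 of type I and 26 of type II.

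The libraries held from 29699741 to 63613710 estimated counts, and BRG1 sample 3 was the shallowest. SMARCA4 had 1439, 1676 and 1538 normalized counts (estimated counts divided by a size factor per library) in Control and 108655, 79075 and 78589 in BRG1 samples, a sum that includes plasmid transcripts. SMARCA2, the other ATPase gene, whose expression is silenced in SCCOHT, lay between 3.79 and 35.7 in the 6 samples. Among marker lists of other cells, DESeq2 called 4 of 13 stratified keratinocyte markers higher with BRG1, 4 of 12 of simple epithelium, 2 of 8 of fibroblasts, 1 of 8 of leukocytes, 4 of 7 of endothelium and 2 of 6 of mesothelium, and 0 lower in each, where 11.0% of all tested genes were called higher (9.57% by edgeR). The edgeR calls were 3, 1, 2, 1, 4 and 2 higher and 0 lower, and at an unadjusted DESeq2 p under 0.05 only 1 keratinocyte and 1 fibroblast marker were lower. A DESeq2 fit with a replicate block called 2 leukocyte markers higher and 1 fibroblast marker lower. The summed keratinocyte markers ran from 24592 to 32073 normalized counts in Control and from 35414 to 43936 in BRG1 samples, and for simple epithelium from 300 to 427 and from 546 to 936. FLG set the difference in the keratinocyte sums. Without it, a choice made after its values were seen, these sums overlapped (24479 to 31990 in Control, 25120 to 27825 in BRG1 samples). DSG1 and DSC2, not called, made up most of them, with means of 21134 and 7387 in Control and 17422 and 6064 in BRG1 samples. The other called keratinocyte markers, IVL, TRIM29 and LY6D, had means of 2.9, 9.01 and 0 in Control and 1292, 1303 and 15.7 in BRG1 samples. The ranges of the summed fibroblast markers (6037 to 10055 and 5008 to 10614), leukocyte markers (1858 to 2868 and 2432 to 3934) and mesothelial markers (6366 to 9930 and 5985 to 9739) overlapped, whereas those of endothelium (1747 to 2683 and 6529 to 6948) did not. Among defining markers, TP63, the master regulator of stratified epithelium, lay between 2.35 and 10.6 in every sample. TP63 was thus low in both groups, while DSG1 and DSC2 of the same list were abundant in both. EPCAM, CD3E and TYROBP held 3 counts or fewer in every sample, while PTPRC lay between 336 and 722. In bulk RNA, more cells that express a gene and more RNA per cell cannot be told apart.

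Many keratin genes rose with BRG1 and none was called lower. DESeq2 called 25 of the 55 members higher at an adjusted p under 0.05 and 0 lower, against 11.0% of the 15991 genes with an adjusted p called higher and 1.84% called lower. No member was lower at an unadjusted p under 0.05 (0 of 55). The edgeR test called 22 members higher and 0 lower, against 9.57% of the genes it tested called higher. By type, 15 of 26 type II and 10 of 29 type I genes were called, in both types 71.4% of the members that had an adjusted p. In 35 members every BRG1 sample lay above every Control sample, which was the case for 15.4% of the 18096 genes with a count. In 0 members the reverse held, a share not counted over all genes. In 41 of the 55, every Control sample held 3 counts or fewer, which left little room to be lower. These 35 included the 25 called members. A DESeq2 fit blocked on replicate number called the same 25 members, and 0 lower, where 13.4% of tested genes were called higher and 6.62% lower in that fit. Over the 35 members with an adjusted p, log2 fold changes had a median of 6.38, beside -0.01 over all genes with an adjusted p. That filter keeps genes by their mean over both groups, so a member silent in Control was tested only where its BRG1 counts were high enough.

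Most called keratins were close to silent in Control. In 4 of the 25 (KRT74, KRT81, KRT83 and KRT86) the Control count was 0 in every sample, and in 10 others every Control sample held 3 counts or fewer. In 11 members at least 1 Control sample held more. For genes of the second kind, the ratio of summed counts corrected for library size is given with its exact 95% interval, which covers counting error only.

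**Figure D1:**
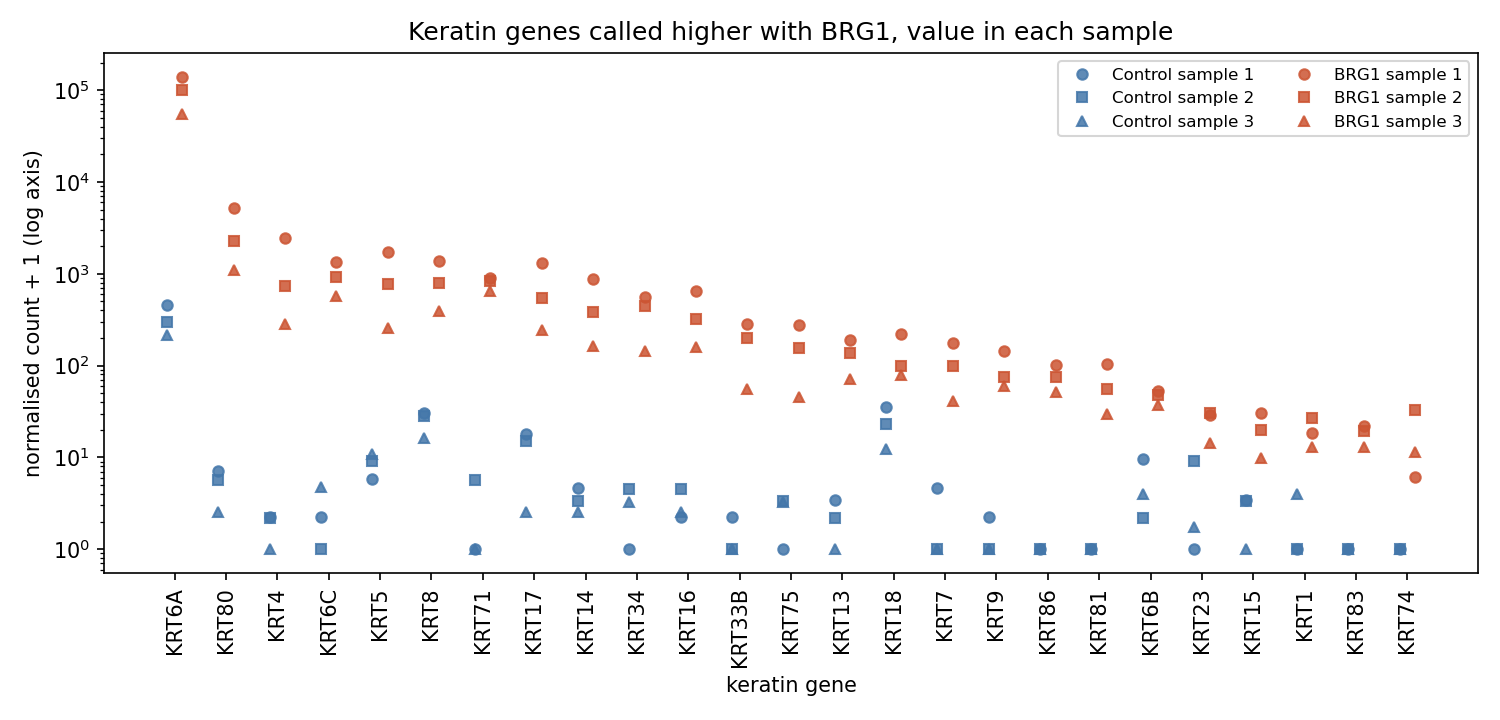
Normalized count plus 1 (log axis) in each of the 3 Control and 3 BRG1 samples for the 25 keratin genes called higher by DESeq2, ordered by their BRG1 mean. In every one of the 25 genes all BRG1 points lie above all Control points, and KRT6A stands above the rest in both groups.

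KRT6A, a type II keratin of wounded and activated epithelium, was the most abundant keratin after BRG1 reexpression. It held 451, 299 and 215 normalized counts in Control samples 1 to 3 and 140786, 101336 and 55380 in BRG1 samples 1 to 3. The lowest BRG1 sample was thus far above the highest Control sample, a log2 fold change of 8.27 (standard error 0.37, DESeq2 adjusted p 2.27e-108). The edgeR adjusted p was 8.61e-05. By estimated count, KRT6A ranked 9325, 10005 and 10488 among all genes in Control and 15, 25 and 73 in BRG1 samples. It alone took 0.305%, 0.224% and 0.125% of all counts in BRG1 samples 1 to 3.

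The other KRT6 genes are near copies of KRT6A and lie beside it, in the order KRT6B (chromosome 12, 52446651 to 52452146), KRT6C (52468516 to 52473805) and KRT6A (52487176 to 52493257), all on the minus strand of GRCh38 (GENCODE release 44). The coding sequence of KRT6A matched that of KRT6C at 1657 and that of KRT6B at 1650 of 1692 bases. Of all stretches of 78 bases, the read length, in the main transcript, 25.2% in KRT6A, 33.2% in KRT6B and 41.2% in KRT6C also occurred in another gene. Below are a stretch of coding sequence that a read cannot assign among the 3 genes (bases 284 to 361 of the KRT6A coding sequence, counted from 1 at its first base) and the stretch in which KRT6A and KRT6C differ most (bases 668 to 745, with the 6 differing bases in capitals). They show how few positions separate these genes.
KRT6A, KRT6B and KRT6C shared: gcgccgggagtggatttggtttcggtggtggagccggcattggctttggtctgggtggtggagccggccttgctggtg
KRT6A: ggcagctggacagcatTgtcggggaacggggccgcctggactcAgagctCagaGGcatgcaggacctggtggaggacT
KRT6C: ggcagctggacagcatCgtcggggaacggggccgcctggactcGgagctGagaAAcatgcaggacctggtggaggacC

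KRT6C held 1.22, 0 and 3.79 normalized counts in Control and 1354, 911 and 576 in BRG1 samples (log2 fold change 8.93, standard error 0.70, DESeq2 adjusted p 9.28e-35). Its estimated count was 0.962%, 0.899% and 1.04% of that of KRT6A in BRG1 samples 1 to 3, a nearly fixed share. KRT6B was 0.0368%, 0.047% and 0.0652% of KRT6A in the same samples. It was called higher, with a log2 fold change of 3.45, and the fitted change was the smallest of the 3 genes. How the counting divided shared reads among the KRT6 genes was not tested, so the values of KRT6B and KRT6C are uncertain.

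The type I keratins that partner KRT6 and KRT5 were all called higher. KRT16, induced in wounded epidermis, held 1.22, 3.52 and 1.51 normalized counts in Control and 646, 321 and 157 in BRG1 samples, a ratio of 212 (95% interval 97.2 to 579; DESeq2 adjusted p 3.61e-20). KRT17, its neighbor with a similar expression range, held 17.1, 14.1 and 1.51 in Control and 1298, 549 and 243 in BRG1 samples (log2 fold change 6.02, standard error 1.04, DESeq2 adjusted p 1.73e-07). In both genes BRG1 sample 1 was the highest and BRG1 sample 3 the lowest, with no overlap with Control.

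KRT14, the basal type I keratin, held 3.65, 2.35 and 1.51 normalized counts in Control and 881, 383 and 164 in BRG1 samples. Its ratio was 235 (95% interval 114 to 585; DESeq2 adjusted p 5.55e-21). Its partner KRT5 held 4.87, 8.21 and 9.84 in Control and 1707, 778 and 257 in BRG1 samples, with a log2 fold change of 6.88 and a standard error of 0.64 (DESeq2 adjusted p 2.13e-25). Both genes of the basal pair thus rose from near zero in every BRG1 sample. KRT15, the other basal type I keratin, was called by DESeq2 at a BRG1 mean of 19.3, and edgeR left it out as too low.

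KRT8 and KRT18, the pair of simple epithelium, were present at low levels in Control. KRT8 held 29.2, 27 and 15.1 normalized counts in Control and 1392, 796 and 394 in BRG1 samples (log2 fold change 5.20, standard error 0.47, DESeq2 adjusted p 3.31e-26). KRT18 held 34.1, 22.3 and 11.4 in Control and 219, 98.8 and 77.6 in BRG1 samples (log2 fold change 2.57, standard error 0.56, DESeq2 adjusted p 7.42e-05). Both genes were higher in every BRG1 sample, and the fitted change was larger for KRT8. In the annotation, exons of KRT8 cover 26.5% of the exonic bases of KRT18, and libraries did not keep strand. Pseudogenes share 17% of the 78-base stretches of KRT8.

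KRT7 and KRT19, the remaining simple pair, parted. KRT7, a type II keratin of glandular and ductal epithelium, held 3.65, 0 and 0 normalized counts in Control and 176, 98 and 40.3 in BRG1 samples, a ratio of 119 (95% interval 40.4 to 580; DESeq2 adjusted p 1.39e-08). KRT19, a type I keratin of ducts and simple epithelium, had 0 in each Control sample and 0.725, 0.831 and 0 in BRG1 samples, at most 1 count per library, and DESeq2 gave no adjusted p. KRT20, the intestinal and urothelial type I keratin, had means of 4.24 in Control and 4.90 in BRG1 samples (DESeq2 adjusted p 0.971).

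KRT10, the type I keratin of suprabasal epidermis, was the most abundant keratin of Control cells and did not move beyond its spread. It held 1161, 803 and 756 normalized counts in Control and 1203, 907 and 701 in BRG1 samples, and the groups overlapped (log2 fold change 0.05, standard error 0.27, DESeq2 adjusted p 0.961). Its partner KRT1 held 0, 0 and 3.03 in Control and 17.4, 25.8 and 11.9 in BRG1 samples, a low level at which the call (log2 fold change 3.96, standard error 1.22, DESeq2 adjusted p 0.0118) was lost without BRG1 replicate 1 (adjusted p 0.117) or BRG1 replicate 2 (adjusted p 0.265).

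Several keratins from outside these pairs were among the strongest. KRT80, a type II keratin found in many epithelia, held 6.09, 4.69 and 1.51 normalized counts in Control and 5201, 2290 and 1103 in BRG1 samples (log2 fold change 9.50, standard error 0.88, DESeq2 adjusted p 4.16e-25). KRT4, the mucosal type II keratin, held 1.22, 1.17 and 0 in Control and 2431, 735 and 284 in BRG1 samples. Its ratio of 2037 rested on 2 Control counts and had a 95% interval of 564 to 16829 (DESeq2 adjusted p 1.53e-11). Its partner KRT13 was also called, with normalized counts of at most 2.44 in Control and of 70.1 to 191 in BRG1 samples, and exons of another gene cover 21.6% of its exonic bases.

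Hair keratins were split. KRT34, a type I hair shaft keratin, held 0, 3.52 and 2.27 normalized counts in Control and 551, 446 and 145 in BRG1 samples, a ratio of 214 (95% interval 98 to 583; DESeq2 adjusted p 2.19e-20). KRT71, a type II keratin of the inner root sheath, held 0, 4.69 and 0 in Control and 898, 835 and 643 in BRG1 samples (log2 fold change 9.20, standard error 0.76, DESeq2 adjusted p 1.41e-31). Its Control level rested on 4 counts in 1 sample, and the log2 fold change ran from 8.38 to 12.13 when 1 Control replicate was left out. KRT71 was the most even of the called keratins among BRG1 samples. Of 17 hair shaft keratins 5 were called (KRT33B, KRT34, KRT81, KRT83 and KRT86), and of 9 root sheath keratins 3 (KRT71, KRT74 and KRT75). DESeq2 gave an adjusted p to 9 of the former and 3 of the latter, and 11.0% of all genes with one were called higher. The type I partners of the inner root sheath, KRT25 to KRT28, had at most 1 count in any sample. KRT81, KRT83 and KRT86 resemble each other at 89.5% to 90.7% of aligned coding bases, and 35.7% of the 78-base stretches of KRT81 and 35.8% of those of KRT86 occur in another gene, so their division is uncertain. Against a floor of 3 counts per Control library, KRT86 was at least 23.9-fold, KRT81 at least 19.5-fold, KRT83 at least 5.43-fold and KRT74 at least 4.99-fold higher.

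By site of expression, all 5 keratins of wounded epithelium and all 3 of the basal layer were called. Calls were 3 of 5 in simple epithelium, 2 of 4 in suprabasal layers (KRT1 and KRT9) and 2 of 3 in mucosa. Of the 2 corneal keratins 0 were called, and of the 7 remaining ones 2 (KRT80 and KRT23). DESeq2 gave an adjusted p to all wounded and basal keratins, and to 4 simple, 4 suprabasal, 3 mucosal, 0 corneal and 4 remaining ones. Of all genes with an adjusted p, 11.0% were called higher. For the 2 corneal genes DESeq2 gave no adjusted p or unadjusted p under 0.05, and edgeR left both out as too low. The 14 called members with a mean under 100 had BRG1 means between 15.7 (KRT74) and 179 (KRT33B). KRT23 was the weakest call (DESeq2 adjusted p 0.0499) and was not called by edgeR (adjusted p 0.0837). The 10 members tested and not called were KRT10 and 9 genes with BRG1 means of at most 5.29 (KRT2, KRT20, KRT38, KRT40, KRT76, KRT77, KRT79, KRT84 and KRT85). A further 15 had counts but no adjusted p, with BRG1 means of at most 2.96 (KRT3, KRT12, KRT19, KRT24, KRT27, KRT31, KRT32, KRT33A, KRT35, KRT39, KRT72, KRT73, KRT78, KRT82 and KRT222). In 5 members no sample held a count (KRT25, KRT26, KRT28, KRT36 and KRT37).

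Called keratins lay in runs along both clusters. DESeq2 gave an adjusted p to 22 members on chromosome 12 and 13 on chromosome 17, and 11.0% of all genes with one were called higher. With so many members called, neighbors are often called together, and the runs were not tested. Near copies within them, such as the KRT6 genes or KRT81 and KRT86, share stretches of read length. On chromosome 12 (27 keratin genes, 52168996 to 52952906), 16 genes were called, among them 5 neighbors from KRT80 to KRT83 within 152 kb and 7 neighbors from KRT75 to KRT74 within 150 kb, a run that holds the KRT6 genes, KRT5 and KRT71. KRT8 and KRT18 closed the cluster. On chromosome 17 (28 genes, 40654665 to 41624842), 9 were called. The 9 genes from KRT222 to KRT20, which include KRT10, held 0 calls. Of these only KRT10 and KRT20 had an adjusted p, and the others held at most 1 count in any sample. The 4 neighbors KRT9, KRT14, KRT16 and KRT17 at the other end were all called within 59 kb, while the 6 genes from KRT31 to KRT36 held 0 calls between the called KRT34 and KRT13. For these 6 genes DESeq2 gave no unadjusted p under 0.05 but 1 (KRT38), and edgeR left all of them out as too low.

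**Figure D2:**
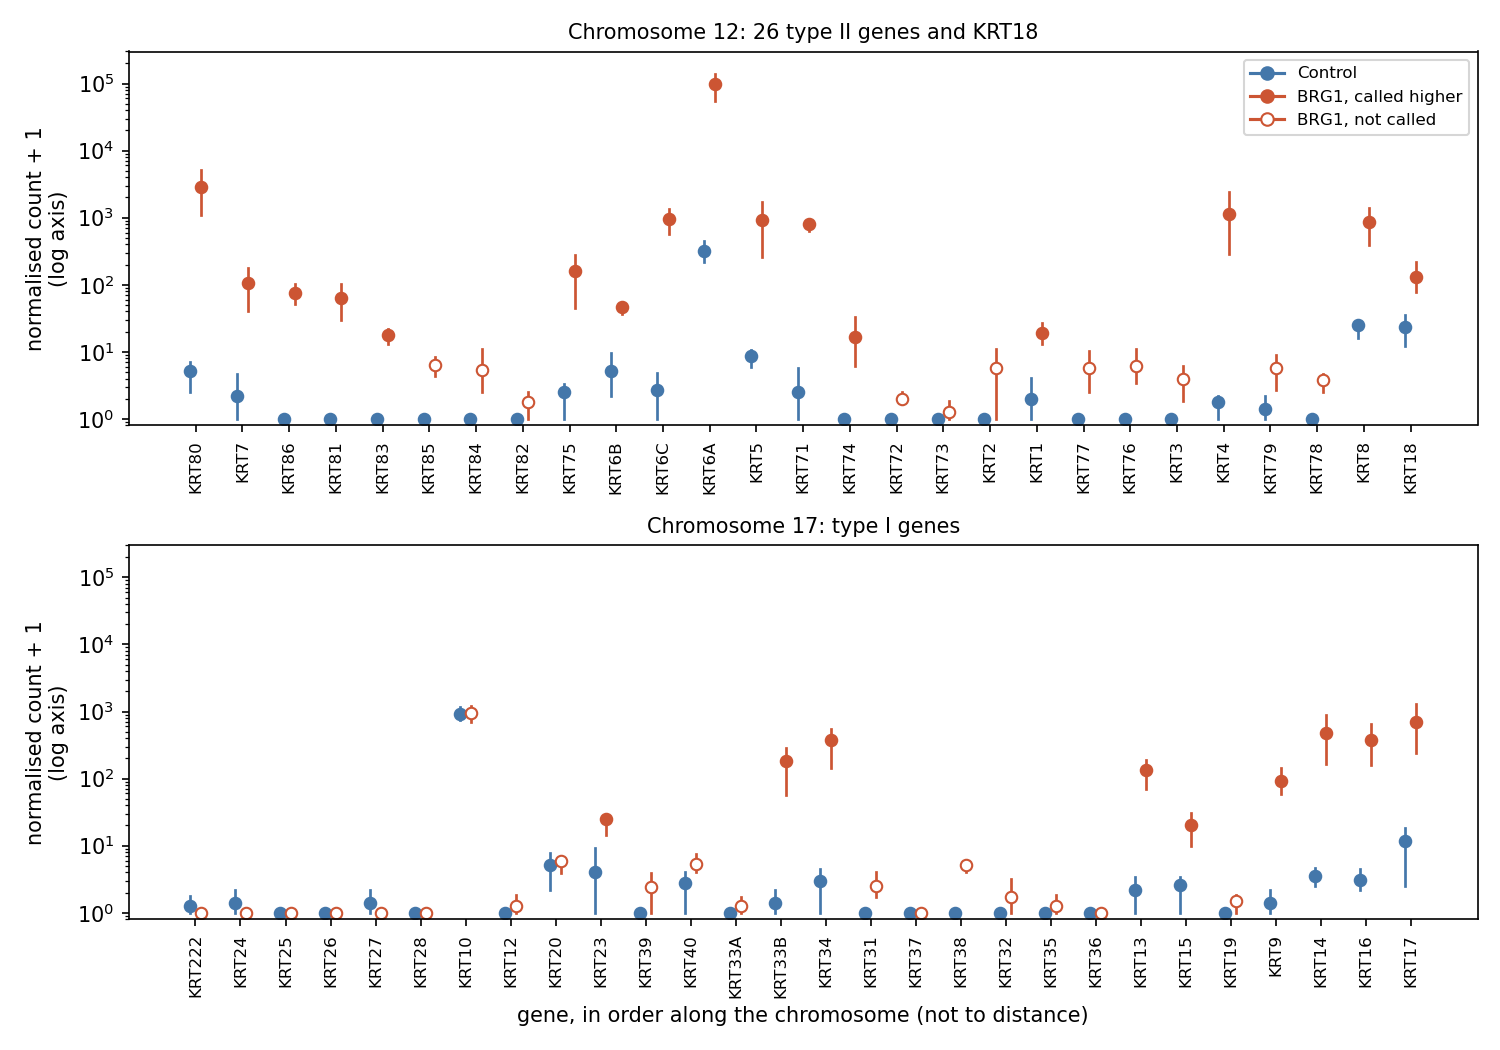
Mean normalized count plus 1 (log axis) of each keratin gene in Control and BRG1 samples, with bars from the lowest to the highest of 3 samples, in gene order along chromosome 12 (top, 26 type II genes and KRT18) and chromosome 17 (bottom, type I genes). Filled BRG1 points were called higher by DESeq2, and KRT10 is the one abundant keratin at which both groups coincide.

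Because filaments need both types, type II and type I levels were compared after division by transcript length. Type II genes summed to 222, 154 and 112 normalized counts per kb in Control samples 1 to 3 and to 66399, 46656 and 25405 in BRG1 samples. Type I genes summed to 586, 416 and 371 in Control and to 3228, 1823 and 947 in BRG1 samples. Both sums were higher in every BRG1 sample than in every Control sample, and the balance turned from type I to type II.

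The type II to type I ratio was 0.38, 0.371 and 0.301 in Control and 20.6, 25.6 and 26.8 in BRG1 samples. The log2 ratio differed by 6.11 (two-sided exact permutation p 0.1, the smallest possible with 3 samples against 3). Without KRT6A and KRT10, the most abundant gene of each type, the ratio was 0.619, 0.604 and 1.01 in Control and 2.02, 1.96 and 2.28 in BRG1 samples, and the log2 difference was 1.53 (exact permutation p 0.1). A type II excess in BRG1 samples was thus also measured without these genes, at a much smaller size.

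KRT6A made up 19.3% to 24.2% of the summed keratin level per kb in Control and 87.6%, 90.6% and 91.1% in BRG1 samples, and KRT10 went from 65.7% to 73.1% down to 0.806%, 0.873% and 1.24%. Per kb, the mean of KRT6A in BRG1 samples was 58.1 times that of KRT80, the next keratin. The summed level of KRT14, KRT16 and KRT17, the type I keratins known to pair with KRT5 and KRT6, was 1784, 790 and 355 per kb in BRG1 samples, where KRT6A alone was 60999, 43906 and 23995. Keratins as a whole took 0.00223% to 0.00375% of all counts in Control and 0.347%, 0.246% and 0.137% in BRG1 samples (difference 0.24 percentage points, two-sided exact permutation p 0.1).

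**Figure D3:**
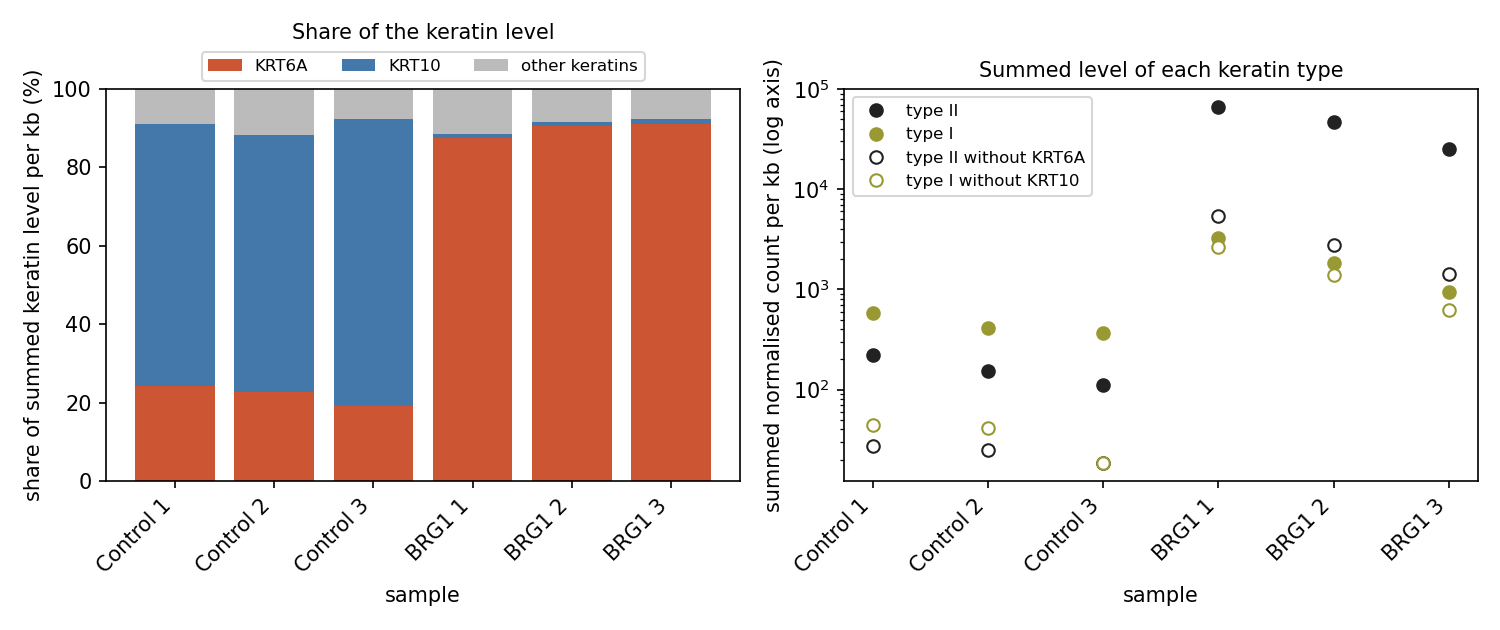
Left, percent of the summed keratin level per kb of transcript taken by KRT6A, KRT10 and the other keratins in each sample. Right, summed normalized count per kb (log axis) of type II and type I keratins, with open points leaving out KRT6A or KRT10. KRT10 leads in the 3 Control samples and KRT6A in the 3 BRG1 samples, and type II lies above type I in BRG1 samples also in the open points.

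Of 9 textbook pairs, 6 had both genes above 3 counts in a sample and were compared as a log2 ratio per kb, with 1 normalized count added. KRT8 to KRT18 was 0.682, 0.952 and 1.03 in Control and 5.01, 6.32 and 3.98 in BRG1 samples, so the pair went from near parity to a KRT8 excess (exact permutation p 0.1, adjusted over the 6 pairs 0.15). KRT5 to KRT14 lay between 0.922 and 3.15 in Control, where both were close to 0 counts, and was 1.41, 1.48 and 1.14 in BRG1 samples (exact permutation p 0.5, adjusted 0.5). This was the pair closest to parity in BRG1 samples.

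KRT6A to KRT16 was 156, 226 and 252 in BRG1 samples against 47.7 to 146 in Control (exact permutation p 0.1, adjusted 0.15). KRT4 to KRT13 was 10.1, 4.32 and 3.20 in BRG1 samples, and is given without a test, since both genes held at most 2 counts in each Control sample and the added count set the Control ratio. KRT1 to KRT10 was 0.0134, 0.0258 and 0.0161 against 0.000752 to 0.00466 (exact permutation p 0.1, adjusted 0.15). KRT6B to KRT17 was 0.0266, 0.0579 and 0.0993 against 0.095 to 1.06, and these groups overlapped (exact permutation p 0.2, adjusted 0.24). Control ratios other than that of KRT8 to KRT18 rest on few counts in at least 1 gene and on the added count.

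The BRG1 samples differed among themselves in one direction for nearly all keratins. BRG1 sample 1 held the highest normalized count in 22 of the 25 called members and BRG1 sample 3 the lowest in 24. Over all 1764 genes called higher, sample 1 was highest in 76.4% and sample 3 lowest in 80.2%. The highest over the lowest BRG1 sample ran from 1.40 in KRT71 to 8.57 in KRT4 with a median of 3.53, beside a median of 2.11 over the 1763 genes called higher with a count in every BRG1 sample. SMARCA4 was also highest in sample 1 but differed little between samples 2 and 3, and sample 3 had the lowest depth. Same-numbered Control and BRG1 samples also deviated together (correlations 0.546, 0.578 and 0.625 over variance-stabilized values). KRT6A fell from sample 1 to sample 3 in Control too, and its BRG1 to Control fold within numbers was 312, 339 and 258. For KRT5, which rose in that order in Control, the fold was 350, 94.8 and 26.1. The part of any of these in the spread was not tested.

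**Figure D4:**
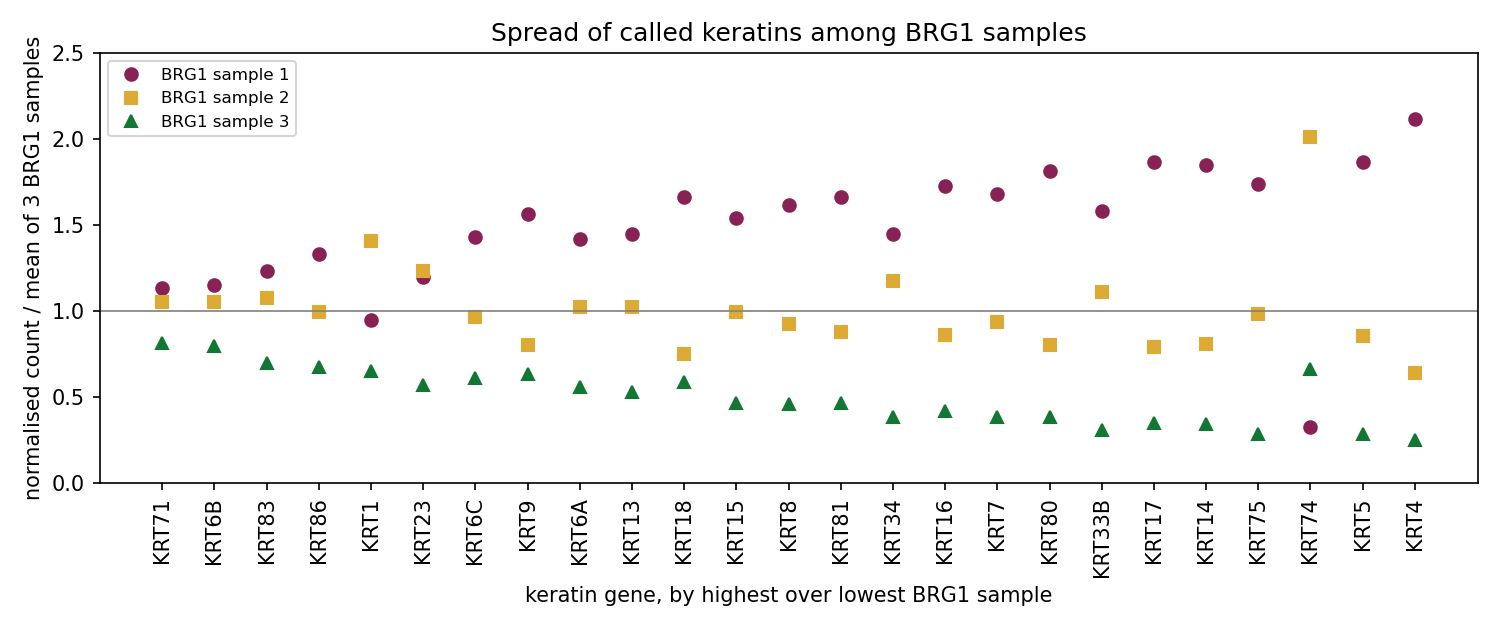
Normalized count in each BRG1 sample divided by the mean of the 3 BRG1 samples for the 25 called keratins, ordered by the ratio of the highest to the lowest sample. BRG1 sample 1 is highest in 22 genes and BRG1 sample 3 lowest in 24, with the narrowest spread in KRT71 (1.40) and the widest in KRT4 (8.57).

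Proteins that anchor or bind keratin filaments were compared with the filament genes. Of 21 such genes, DESeq2 called 10 higher and edgeR called 8 (all tested genes, 11.0% and 9.57%). Neither tool called any lower (0), also at an unadjusted DESeq2 p under 0.05 (0). FLG, which encodes filaggrin, the protein that bundles keratin in the outer epidermis, held 169, 83.3 and 113 normalized counts in Control and 18816, 11907 and 9090 in BRG1 samples (log2 fold change 6.77, DESeq2 adjusted p 7.2e-88). SFN, a 14-3-3 protein that binds keratins, had a log2 fold change of 5.52, and COL17A1 of the hemidesmosome one of 4.74.

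Of 6 plakins, which tie filaments to junctions and the cytoskeleton, DESeq2 called 3 higher. EPPK1 had a log2 fold change of 4.28 and PPL one of 2.87. DSP, the desmosomal plakin, held 241, 183 and 254 normalized counts in Control and 971, 729 and 590 in BRG1 samples (log2 fold change 1.75, DESeq2 adjusted p 2.86e-10). The others were not called: the log2 fold change was 0.29 for PLEC (DESeq2 adjusted p 0.44) and -0.17 for DST (DESeq2 adjusted p 0.672), and EVPL, nearly silent, had no adjusted p. PKP2, a desmosomal plakophilin, rose with a log2 fold change of 4.19. FAM83H, which organizes keratin filaments, had one of 1.21 and AJUBA one of 0.64, and the latter was not called by edgeR (adjusted p 0.0567).

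Of 31 transcription factors known to act on keratin genes, DESeq2 called 6 higher and edgeR 4 (all tested genes, 11.0% and 9.57%), and 0 were lower by either (0 at an unadjusted DESeq2 p under 0.05). The blocked DESeq2 fit, which called 13.4% of all tested genes higher, called 15 of them higher and 0 lower. It lost ELF5 and added 10, the AP-1 genes JUN, JUNB, FOS, FOSB, FOSL1 and FOSL2 with KLF4, TFAP2C, CEBPB and NFE2L2. SOX9, a factor of hair follicle progenitors, held 56, 34 and 14.4 normalized counts in Control and 4211, 2414 and 1072 in BRG1 samples (log2 fold change 6.22, DESeq2 adjusted p 5.5e-30). KLF5, a factor of basal and gut epithelium, held 267, 177 and 120 in Control and 3838, 2481 and 1210 in BRG1 samples (log2 fold change 3.74, DESeq2 adjusted p 4.46e-17). For GATA3 the log2 fold change was 0.86, and the edgeR test missed the threshold (adjusted p 0.116). TP63, the factor known for activating KRT5 and KRT14, was near 0 in both groups (log2 fold change -0.26, DESeq2 adjusted p 0.942).

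Keratin-associated proteins, which cross-link hair keratins in the shaft, were mostly silent. Of 94 such genes 80 held 3 counts or fewer in every sample. DESeq2 tested 9 and called 2 higher (KRTAP2-3 and KRTAP3-1), and edgeR called 1 (all tested genes, 11.0% and 9.57%). Neither called any lower (0, and 0 at an unadjusted DESeq2 p under 0.05).

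Promoters were examined because many members moved together. RefSeq promoter sequences (GRCh38.p14) matched 34 of the 55 genes by symbol. They did not match KRT1, KRT6A, KRT6B, KRT6C, KRT7, KRT13 to KRT19, KRT23, KRT72, KRT77, KRT78, KRT80, KRT81, KRT83, KRT86 and KRT222. The AP-1 motif TGANTCA, which reads alike on both strands, was searched in the 250 bases before the start site. It was in 0 of the 34 genes (0 of the 9 called and 0 of the 25 others) and in 8.06% of all 27305 genes of the table. Promoters of the other called members, KRT6A, KRT14, KRT16 and KRT17 among them, were not searched, so the motif was not tested there. A share of 8.06% could also give 0 of 9 genes, so the search cannot show that called members lack the motif. The study reported AP-1 motifs in another SCCOHT line, in a wider promoter window and at distal sites, which were not searched here. The letters TATAA, searched on the gene's strand in the 50 bases before the start site, were in 21 of the 34 (61.8%), and in 5.96% of all genes of the table. They were in 5 of the 9 called and in 16 of the 25 other members. Shown are the 100 bases before the start site of KRT4 (chr12:52814117-52814216), KRT34 (chr17:41382307-41382406) and KRT71 (chr12:52553146-52553245), which rose, and of KRT10 (chr17:40822615-40822714), which did not, all on the minus strand, with TATAA in capitals at -29, -31, -28 and -29.
KRT4: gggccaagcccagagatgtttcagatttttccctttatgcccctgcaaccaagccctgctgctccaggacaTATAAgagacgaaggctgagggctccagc
KRT34: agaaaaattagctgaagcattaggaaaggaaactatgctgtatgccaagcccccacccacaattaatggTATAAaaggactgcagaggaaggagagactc
KRT71: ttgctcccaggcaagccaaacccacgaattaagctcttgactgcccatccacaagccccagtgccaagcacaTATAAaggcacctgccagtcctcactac
KRT10: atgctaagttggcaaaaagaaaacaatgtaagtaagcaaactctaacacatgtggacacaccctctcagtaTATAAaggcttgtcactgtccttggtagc
In the genes shown, KRT10 among them, the letters stand at nearly the same place. Whether they go with the rise was not tested.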

How the data were processed

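Poly(A) RNA libraries, made from 500 ng of RNA without strand, were sequenced as 78-base read pairs. The authors checked reads with FastQC 0.11.5, aligned them with STAR 2.5.3a (hg38), quantified transcripts with Salmon 0.8.2 and brought them to gene level with tximport. What they deposited is an estimated count for each gene, which tximport derives by scaling TPM to transcript length and depth. Salmon divides reads that fit several genes by a model, so values of near-identical keratins are uncertain.

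Estimated counts were rounded. Totals of 29699741 to 63613710 per sample set the counting error. The main test, taken from the study's methods, was the DESeq2 (1.42.0) Wald test in R 4.3.3 over the 18096 genes with a count, with no covariate. Adjusted p-values are Benjamini-Hochberg, and those DESeq2 left empty stayed empty. Alternatives were edgeR 4.0.16 (quasi-likelihood, TMM), limma-voom 3.58.1, other filters and factors, a replicate block and leaving out each sample. When both were tested on simulated data, false calls exceeded the stated rate far more in DESeq2 than in edgeR, where the excess was small. For this reason edgeR counts stand beside those of DESeq2. The simulated samples were drawn independently, without a pairing by number. For every keratin that edgeR tested, its adjusted p was larger than that of DESeq2. For KRT17 it was 0.00344 beside 1.73e-07, and for KRT18 0.0221 beside 7.42e-05. Nothing states that the samples came from separate cultures beyond the study calling them biological replicates.

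Same-numbered Control and BRG1 samples deviated together (correlations 0.546, 0.578 and 0.625 over variance-stabilized values), so the numbers were taken to pair the samples. Levels per kb used the Ensembl canonical transcript of GENCODE release 44, while the authors used another release of the same build. Single values were compared by exact permutation over samples.

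Values in every sample are given for SMARCA4, for keratins called with a mean of at least 100 normalized counts and for the pairs KRT5-KRT14, KRT1-KRT10, KRT8-KRT18 and KRT7-KRT19. Other members are given by count and range, and list genes are named where called with a mean of at least 100. KRT13, KRT15, KRT20, KRT23, TP63, the plakins not called, the factors called only with the block and other marker genes were singled out after their values were seen. The members and lists were chosen with earlier results of these data known.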

Additional observations from a re-analysis of the deposited data

How the results depend on the processing

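The count of keratins called higher (25) ran from 20, with a filter of 10 counts in 3 samples, to 25, also with the replicate block in DESeq2, and from 21 to 25 when 1 replicate was left out. With the block edgeR called 23. The calls lost under another test, filter, factor or left-out replicate were those of KRT1, KRT15, KRT23, KRT74 and KRT83, all at low counts. At an adjusted p under 0.01, 22 remained. Calls of type II genes (15) ran from 12 to 15 and of type I genes (10) from 8 to 10, and no alternative called a keratin lower (0). Apart from the transcription factor, leukocyte and fibroblast counts given above, the pairing moved no list by over 1.5 times, and it changed no keratin call in DESeq2, while in edgeR it added KRT23 (adjusted p 0.0321). The log2 fold change of KRT10, not called in any fit, ran from -0.17 to 0.26 when 1 replicate was left out and was -0.03 without Control replicate 2, -0.07 without Control replicate 3 and -0.17 without BRG1 replicate 1.

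The keratin share of counts (difference 0.24) ran from 0.189 to 0.294, and the log2 type II to type I difference (6.11) from 6.01 to 6.23, when 1 replicate was left out, and the latter was 6.41 without division by length. As mean differences within numbers, with the replicate block, they were 0.24 and 6.11 with an exact p of 0.25, the smallest that 3 pairs allow. The difference in log2 ratio of KRT5 to KRT14, BRG1 minus Control, turned from -0.43 to 0.123 with 5 in place of 1 normalized count added, and the other 5 pair ratios kept their direction in every alternative run. Few counts limit the precision of the low members.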
